A study of Mus musculus with 15 samples.

Results

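The 70 transcripts described here encode spliceosome proteins, hnRNPs and SR proteins of mouse embryonic stem cells (mESCs). A transcript was taken where its gene symbol in GENCODE M21 begins with Hnrnp, Srsf, Sf3, Snrp, U2af or Prpf, and Pqbp1 was added by name. These are 70 of the 21727 transcripts with counts, and they comprise 21 hnRNPs, 11 SR proteins, 12 Sm, U1 and U2 snRNP proteins (Snrp), 9 SF3 subunits, 3 U2AF subunits, 13 PRPF proteins and Pqbp1. Of all transcripts, 10085 passed the filter on low counts and were tested, and 66 of the 70 members were among them. Pqbp1 had been singled out in an earlier look at these data, so its values are given as a description and counts are also given without it.

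All libraries came from the mESC line E14Tg2a.4, and ribosome-protected fragments (RPFs, or footprints) were sequenced. The genotypes were wild type (WT), Rps27-FLAG and Rps27l-FLAG, called eS27-FLAG and eS27L-FLAG in the sample labels, with 3 clones each. In the tagged lines a 3xFLAG epitope sits on both endogenous copies of Rps27 or of its paralog Rps27l, each line was represented by separately selected clones, and the WT clones were matched for passage. Total RPFs were read in all 9 clones and RPFs of ribosomes pulled down with anti-FLAG beads (IP RPFs) in the 6 tagged clones, which gives 15 libraries in 5 conditions of 3. All cells had been treated with cycloheximide, an inhibitor of translation elongation, before lysis.

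Before a transcript leaves the nucleus, the spliceosome removes its introns. U1 snRNP recognises the start of an intron, the U2AF subunits and the U2 snRNP with its SF3A and SF3B subcomplexes recognise its end and branch point, and the U4/U6.U5 tri-snRNP then joins to form the catalytic machine. Sm proteins form the ring at the core of most of these snRNPs. PRPF proteins act in the tri-snRNP and in the remodelling of the spliceosome, with Prpf8 at the catalytic centre. SR proteins carry a domain rich in arginine and serine and mostly promote the use of nearby splice sites, while hnRNPs coat nascent RNA and often act against them. Many of these proteins also control the stability or translation of mRNAs. Footprint counts measure how many ribosomes were translating the mRNA of such a protein, not its splicing activity.

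The sequences below show what sets some of these coding sequences apart and why the counts of others are uncertain. The first 5 are the 60-nt stretches of a single exon with the most arginine and serine codons, shown for the 3 tested SR proteins with the highest share of such codons over the whole coding sequence (CDS), for Pqbp1 and for Prpf8. Arginine codons are in capitals, and all sequences are from GENCODE M21 on GRCm38, written 5′ to 3′ along the mRNA.
Srsf2: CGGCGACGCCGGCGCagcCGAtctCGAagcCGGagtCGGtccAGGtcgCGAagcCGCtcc
Srsf7: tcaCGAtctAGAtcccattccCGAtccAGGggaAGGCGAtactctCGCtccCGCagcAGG
Srsf4: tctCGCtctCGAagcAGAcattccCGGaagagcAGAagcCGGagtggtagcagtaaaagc
Pqbp1: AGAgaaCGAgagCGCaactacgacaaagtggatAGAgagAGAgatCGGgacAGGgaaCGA
Prpf8: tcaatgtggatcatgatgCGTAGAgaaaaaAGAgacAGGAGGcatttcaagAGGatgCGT

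The Srsf2 stretch (chr11:116852268-116852327, minus strand) consists of arginine and serine codons in all 20 positions, of which 12 are arginine. The stretches of Srsf7 (chr17:80204327-80204386, minus strand) and Srsf4 (chr4:131900063-131900122, plus strand) hold 17 and 16 such codons of 20. In Pqbp1 (chrX:7895698-7895757, minus strand) the densest stretch has 8 arginine codons and no serine codon, and arginine alternates there with acidic residues. In Prpf8 (chr11:75489999-75490058, plus strand) it has 7 arginine codons and 1 serine codon. Over the whole CDS, arginine and serine made up between 22.1% and 45.7% of the codons of the 10 tested SR proteins, with a median of 38.0%. The median over the 10082 tested transcripts with an annotated CDS was 13.5%, and Srsf2 had the highest share of them all. The medians of the hnRNPs (14.1%) and PRPF proteins (14.03%) were near it, and those of the SF3 subunits (10.6%) and Snrp proteins (10.4%) were below it. Prpf38b (28.04%), Prpf38a (25.3%) and Prpf4b (24.1%) were above the lowest SR protein, Srsf9.

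The authors kept reads that aligned to a single transcript, so a stretch of CDS that recurs elsewhere can lose its counts. The next sequences show this for an SR protein and an hnRNP. Bases in lower case lie in a 28-nt window that is also present in another transcript of the count table, and bases in capitals lie in no such window.
Srsf3: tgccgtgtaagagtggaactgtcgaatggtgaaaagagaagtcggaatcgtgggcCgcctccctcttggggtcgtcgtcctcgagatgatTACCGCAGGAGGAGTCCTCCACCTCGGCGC
Hnrnpa3: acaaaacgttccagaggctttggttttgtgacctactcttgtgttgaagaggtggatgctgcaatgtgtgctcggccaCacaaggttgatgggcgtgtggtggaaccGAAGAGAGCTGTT

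Only 31 of the 120 bases shown are free of shared windows in Srsf3 (chr17:29038503-29038622, plus strand, exon 3) and 14 of 120 in Hnrnpa3 (chr2:75661689-75661808, plus strand, exon 3). Over the whole CDS, 61.5% of the windows of Srsf3 recur in Gm12355, 78.1% of those of Hnrnpa3 in Gm6793 and Gm17190, and 70.9% of those of Hnrnpa1 in Gm5643 and Hnrnpa1l2-ps2. Gm6793 held 9614 counts over all libraries, more than the 6119 of Hnrnpa3 itself, while Gm12355 held 2. The levels of Srsf3, Hnrnpa3 and Hnrnpa1 given here are therefore uncertain. In all, 21 members have over 50% of their windows in another M21 gene, mostly one outside the count table. They include Hnrnpf (97.95%), U2af1 (94.2%), Hnrnpk (87.5%), Snrpf (83.1%), Snrpe (80.3%), Snrpd2 (75.5%) and Srsf5 (73.7%). Hnrnph2 (73.9%), Snrpc (69.1%), U2af2 (67.2%), Snrpa (64.3%) and Hnrnpc (61.2%) are also among them. The values of all these members below are uncertain to the extent that such genes were in the alignment reference. Another case is Snrpg, a subunit of the Sm ring. It had 0 counts in every library, and all of its 201 windows recur in other M21 genes outside the count table. The authors' reference took canonical transcripts of an earlier GENCODE release that carried a Uniprot, RefSeq or Entrez identifier, and which of those genes met that rule was not checked here. The other untested members were the processed pseudogene Hnrnpa1l2-ps2 (0 counts), Srsf12 (22 counts over all libraries) and U2af1l4 (20 counts), a paralog of U2af1 that shares 89.7% of its windows with Gm49396.

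These proteins belonged to the more strongly translated in WT cells. Levels are given as CPM per kb of CDS in WT total RPFs, a density that can be compared between genes (mean ± SD, n = 3). The median of the 66 tested members was 261 and that of all tested transcripts 25.5, and 39 members were in the top 10% of tested transcripts. Hnrnpa2b1, which binds and sorts mRNAs, had the highest density of the members with 1270 ± 75.4, followed by Hnrnpk with 1176 ± 71.7 and Hnrnpf with 982 ± 48.8. The first pair did not differ beyond their spread. Hnrnpa1, one of the uncertain cases above, was the lowest tested hnRNP with 40.6 ± 4.865.

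Among the Snrp proteins the median was 527, and the Sm proteins Snrpe (917 ± 44.5), Snrpd2 (710 ± 42.7) and Snrpf (704 ± 40.6) were highest. Snrpn, an imprinted paralog of Snrpb, was lowest with 54.9 ± 12.9. Of the SR proteins, Srsf2 (863 ± 80.8), Srsf7 (819 ± 36.1) and Srsf5 (812 ± 64.1) stood within their spread of each other. Srsf4 had 74.8 ± 2.99, and Srsf3, whose level is uncertain, was the lowest tested with 30.15 ± 5.53. The 9 SF3 subunits spanned the narrowest range of the groups with more than a pair of members, from 156 in Sf3a2 to 335 in Sf3b6. U2af1 had 522 ± 22.9 and its partner U2af2 316 ± 15.0. The PRPF proteins were translated at lower density, with a median of 98.7, the ubiquitin ligase Prpf19 at the top (262 ± 15.3) and Prpf40b at the bottom (11.1 ± 0.418). Prpf8, the largest member with a CDS of 7005 nt, had 210 ± 2.35 and Pqbp1 72.3 ± 1.41.

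**Figure D1:**
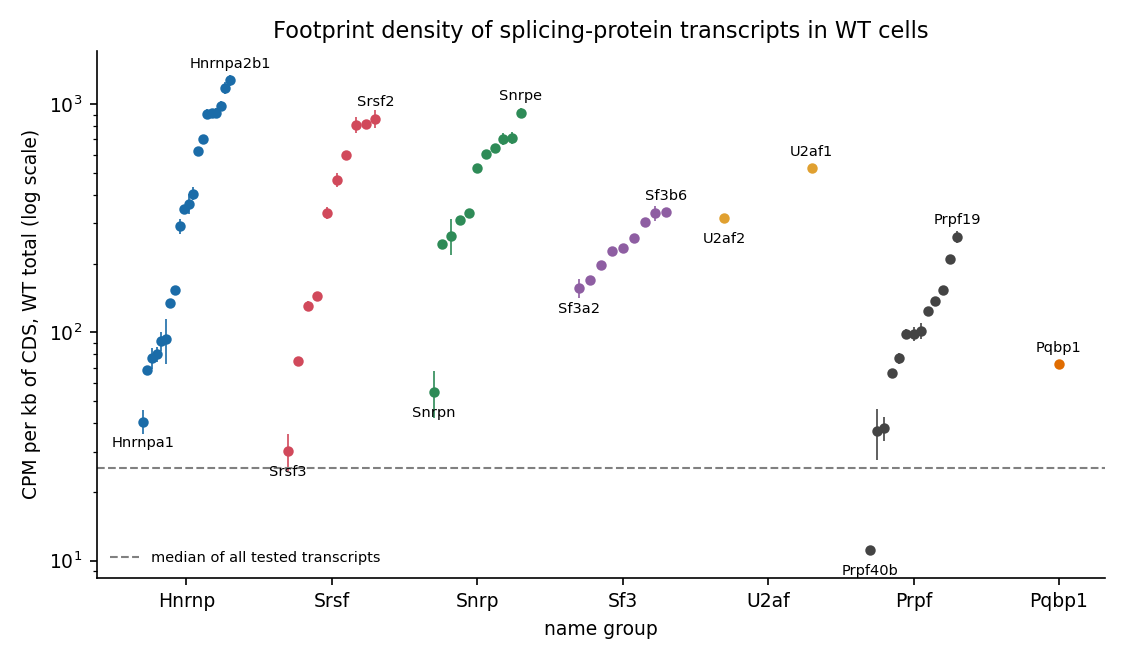
Density of WT total footprints on the 66 tested members by name group, in CPM per kb of counted CDS on a log axis. Points are means and bars SDs over 3 clones, the lowest and highest member of each group are named, and the dashed line is the median of all tested transcripts (25.5), which only Prpf40b lies under.

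Library totals ranged from 3972152 to 8064166 counts, and members took up between 2.52% and 2.67% of the counts in the 9 total libraries and between 2.80% and 2.96% in the 6 IP libraries. Sums over the 9 mESC markers were 3320 to 3623 CPM in total and 3833 to 4005 CPM in IP libraries, and the feeder fibroblast genes Lum, Postn and Col3a1 reached at most 4 counts in a library. The 6 fibroblast markers together summed to between 9.21 and 33.2 CPM over all libraries, with Thy1 at up to 24.1 CPM and Col1a1 at up to 8.23 CPM, and the ranges of the 5 conditions overlapped. Transcripts of the 3 primitive endoderm markers summed to 6.01 to 13.9 CPM in the Rps27l-FLAG libraries and to 1.61 to 5.49 CPM in the Rps27-FLAG libraries. In the WT libraries they summed to 2.39 to 6.16 CPM. The neurectoderm markers Pax6 and Sox1 summed to between 2.60 and 22.6 CPM, and the ranges of the 5 conditions overlapped. The part of these markers in the differences between the lines was not tested. The tagged genes could not serve as a check of the labels, since Rps27 had 0 counts in every library and Rps27l between 655 and 1151. Counts can rise with more mRNA or with more ribosomes per mRNA, and these cannot be told apart here.

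The first question was whether tagging alone altered the translation of these mRNAs, which was asked in the total RPFs. No member passed an adjusted p of 0.05 in any of the 3 comparisons between lines (edgeR quasi-likelihood test with Benjamini-Hochberg adjustment), as no transcript did among the 10085 (0%). At an unadjusted p under 0.05 there were 4 of 66 members for Rps27-FLAG against WT, 0 for Rps27l-FLAG against WT and 4 for Rps27l-FLAG against Rps27-FLAG. Over all 10085 transcripts the counts were 294, 574 and 580, so nothing about the members is read from theirs. The median log2 fold changes of the members were 0.03, 0.02 and −0.03, with a median SE of 0.07, and those of all tested transcripts were 0.00 in each. These comparisons share libraries, so that a low or high line enters more than once.

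Prpf19, the ubiquitin ligase at the heart of the complex named after it, had the smallest p of the members in the comparison of the tagged lines. Its normalised CPM were 363, 374 and 405 in WT, 419, 464 and 435 in Rps27-FLAG and 365, 360 and 388 in Rps27l-FLAG total libraries. All 3 Rps27-FLAG libraries were above the other 6. The log2 fold change was 0.21 ± 0.06 (SE) for Rps27-FLAG against WT (adjusted p = 0.999) and −0.24 ± 0.06 for Rps27l-FLAG against Rps27-FLAG (adjusted p = 0.803). With the replicate number as a block (libraries of a replicate were pooled during preparation) the latter had an adjusted p of 0.0481, and Prpf19 was the single member called. That is 1.52% of the members, near the 1.36% of all tested transcripts that the block calls in this comparison, so nothing is read from it. The block calls 1.43% of all in Rps27l-FLAG against WT and 0.00992% in Rps27-FLAG against WT, with no member in either.

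Other members with log2 fold changes beyond their SE stayed short of the threshold. Prpf39, a factor associated with the U1 snRNP, was at 0.31 ± 0.15 in Rps27l-FLAG against WT and 0.33 ± 0.15 against Rps27-FLAG. Prpf6, which bridges parts of the tri-snRNP, was at 0.22 ± 0.08 in Rps27-FLAG against WT. Snrpn was at −0.28 ± 0.17 in Rps27l-FLAG against WT. Pqbp1 differed little in total libraries, with 53.7, 52.8 and 51.7 CPM in WT, 55.6, 50.5 and 49.5 in Rps27-FLAG and 57.9, 51.9 and 53.3 in Rps27l-FLAG, and the ranges of the 3 lines overlapped. Its log2 fold changes against WT were −0.02 ± 0.08 and 0.04 ± 0.08.

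The remaining members at either end of these comparisons had smaller or less certain values. Against WT, Srsf3 was at 0.22 ± 0.19 in Rps27-FLAG and 0.21 ± 0.19 in Rps27l-FLAG, and Hnrnpr at 0.14 ± 0.13 and 0.26 ± 0.13. Hnrnph3 was at −0.19 ± 0.09 and Prpf40b at −0.19 ± 0.14 in Rps27-FLAG against WT, and both were above 0 in Rps27l-FLAG against Rps27-FLAG (0.22 ± 0.09 and 0.21 ± 0.14). Both comparisons share the Rps27-FLAG libraries. The other high members against WT lay between 0.09 and 0.13, namely Prpf4, Sf3a3, Sf3a1, Hnrnpll and U2af2 in Rps27-FLAG and Prpf38a, Snrpa1, Prpf4b, Prpf18, Prpf4, Hnrnpdl and Hnrnpll in Rps27l-FLAG. The other low ones lay between −0.11 and −0.08 in Rps27l-FLAG, namely Sf3b3, Srsf6, Hnrnph1, Snrpb, Sf3b5, Hnrnpa0, Srsf10, Prpf31 and Hnrnpm. Sf3b3 (−0.07 ± 0.05), Hnrnpa1, Hnrnpa3, Prpf18, Hnrnph1, Hnrnpl and Hnrnpul1 were low in Rps27-FLAG, and all but Sf3b3 were within their SE. Between the tagged lines, Snrpn was at −0.27 ± 0.17, Prpf6 at −0.18 ± 0.08, Sf3a2 at −0.14 ± 0.07 and Hnrnpa1 at 0.18 ± 0.16, and Hnrnpm, Srsf6, U2af2, Srsf10 and U2af1 lay between −0.14 and −0.11. At the high end Prpf18 was at 0.16 ± 0.11 and Hnrnpa2b1 at 0.06 ± 0.05, while Hnrnpr, Snrpa1, Pqbp1 and Hnrnph2 were within their SE.

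The second question was which of these mRNAs were more or less frequent on the tagged ribosomes than on all ribosomes of the same cells. In both lines most members were higher in IP than in total RPFs, by small amounts, and Prpf8 was lower. The log2 fold change was above 0 for 58 of 66 members in the Rps27-FLAG line, with a median of 0.18, and for 61 of 66 in the Rps27l-FLAG line, with a median of 0.14. Over all tested transcripts the medians were −0.01 and −0.03. In both lines together, 57 of 66 members were above 0 and 4 below, against 3530 and 4332 of all 10085.

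Without a block, 3 members (4.55%) were called higher and 1 lower in the Rps27-FLAG IP, and 0.327% of all tested transcripts were called higher and 5.34% lower. Without Pqbp1 2 members remained called higher. In the Rps27l-FLAG IP, 5 members (7.58%) were called higher and 1 lower, beside 0.833% and 2.27% of all. Each IP library has its own clone's total library as a partner. With the clone as a replicate block, 52 members (78.8%) were called higher and 3 lower in the Rps27-FLAG line, where 18.3% of all tested transcripts were higher and 22.9% lower. In the Rps27l-FLAG line the block gave 42 members (63.6%) higher and 2 lower, beside 12% and 19% of all. The same 42 were higher in both lines.

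The counts without the block changed with the clone that was left out. Without replicate 1 of the Rps27-FLAG line 36 members were called, and without replicate 2 or 3 none was, nor was any of the 10085 transcripts. In the Rps27l-FLAG line no member and no transcript was called without replicate 1 or 2, and 5 members were called without replicate 3. With the block and one clone left out, between 48 and 50 members were called in the Rps27-FLAG line and between 37 and 42 in the Rps27l-FLAG line.

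The libraries can also be read without a model. In the Rps27-FLAG line all 3 IP libraries were above all 3 total libraries for 30 members (45.5%) and below them for 3, while this held for 11.3% and 17% of all tested transcripts. In the Rps27l-FLAG line it held for 33 members (50%) and 2, and for 9.11% and 14.2% of all.

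**Figure D2:**
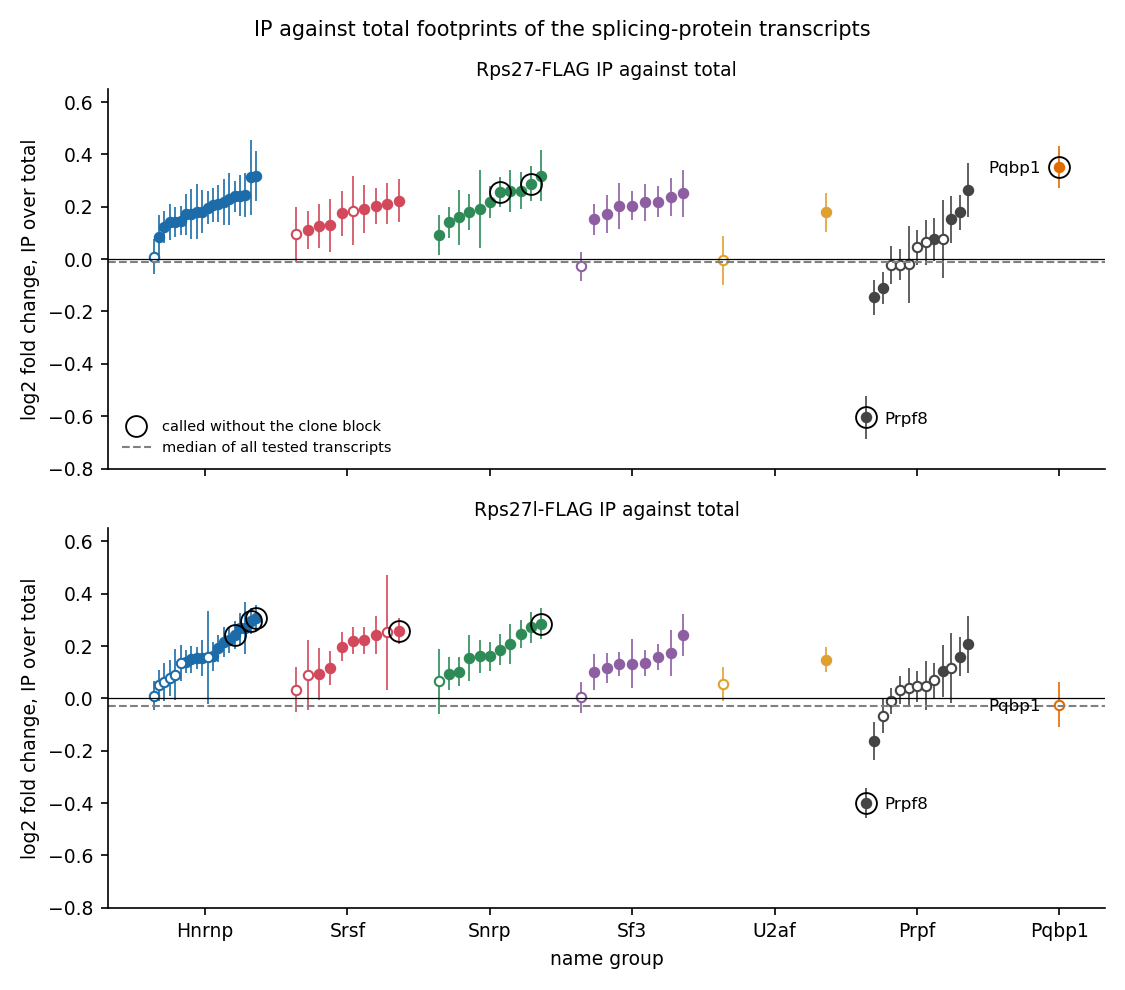
Log2 fold change of IP over total RPFs (± SE) for each tested member, by name group, in the Rps27-FLAG line (top) and the Rps27l-FLAG line (bottom). Filled points were called with the clone as a block, open points were not, black rings mark members called without the block, and the dashed line is the median of all tested transcripts. The hnRNP, SR, Snrp and SF3 groups lie mostly above 0, the PRPF group straddles it, and Prpf8 is lowest in both lines.

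All 11 tested Snrp transcripts, which encode Sm proteins and proteins of the U1 and U2 snRNPs, had a log2 fold change above 0 in both lines, with medians of 0.22 and 0.16. The block called all 11 in the Rps27-FLAG line and 10 in the Rps27l-FLAG line, and without it 2 and 1 were called. This did not hold for every snRNP protein, as the U1 protein Snrnp70, which is outside the name rule, was called lower in both lines. Snrpa and Snrpc, protein components of the U1 snRNP, were called in the Rps27-FLAG line without the block. Snrpa had 261, 273 and 269 CPM in total and 310, 336 and 314 CPM in IP libraries. No IP library reached down to a total library, and the ratio was 1.19 (log2 fold change 0.26 ± 0.06, adjusted p = 0.0450 by edgeR). Snrpc had 100, 102 and 99.5 CPM in total and 114, 127 and 127 CPM in IP libraries, again without overlap (0.29 ± 0.07, adjusted p = 0.0462).

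In the Rps27l-FLAG line Snrpa was at 0.16 ± 0.05 and Snrpc at 0.21 ± 0.08, neither of them called without the block. The Sm protein Snrpd3 was called there, with 218, 202 and 199 CPM in total and 254, 250 and 250 CPM in IP libraries (0.29 ± 0.06, adjusted p = 0.0414). Its value in the Rps27-FLAG line was 0.22 ± 0.06. The Sm proteins Snrpd2 (0.32 ± 0.10 and 0.25 ± 0.05) and Snrpe (0.26 ± 0.07 and 0.27 ± 0.06) had values of the same size and were called in both lines with the block but in neither without it. Snrpb2, a U2 snRNP protein, was at 0.26 ± 0.08 and 0.19 ± 0.06, again called with the block alone.

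All 20 tested hnRNPs were above 0 in both lines, with medians of 0.19 and 0.16, and the block called 19 and 13 of them. Without it, 3 were called in the Rps27l-FLAG line. Hnrnpa2b1 had 1267, 1231 and 1323 CPM in total and 1504, 1638 and 1583 CPM in IP libraries of that line. Every IP library exceeded every total library, by a ratio of 1.24 (0.31 ± 0.05, adjusted p = 0.0201). Hnrnpk, a KH-domain protein that binds C-rich RNA, had 1441, 1463 and 1542 CPM in total and 1728, 1845 and 1889 CPM in IP libraries (0.30 ± 0.05, adjusted p = 0.0224). Hnrnpab was at 0.24 ± 0.05 (adjusted p = 0.0496). In the Rps27-FLAG line these 3 were at 0.24 ± 0.06, 0.23 ± 0.10 and 0.24 ± 0.09. The relatives Hnrnpa3 (0.32 ± 0.09 and 0.27 ± 0.10) and Hnrnpa1 (0.31 ± 0.14 and 0.16 ± 0.18) were among the highest in the Rps27-FLAG line and are the uncertain cases named above. Hnrnpc, which coats nascent RNA, was at 0.22 ± 0.09 and 0.27 ± 0.06 and was called in both lines with the block. Hnrnpul1 was nearest to 0 in both lines, at 0.01 ± 0.07 and 0.01 ± 0.06.

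The SR proteins had medians of 0.18 and 0.21, with all 10 tested members above 0, and the block called 8 and 7. Srsf7, an SR protein with a zinc knuckle, was called without it in the Rps27l-FLAG line, with 538, 525 and 554 CPM in total and 617, 645 and 672 CPM in IP libraries (0.26 ± 0.05, adjusted p = 0.0327). The groups did not overlap. Srsf1 was at 0.21 ± 0.08 and 0.22 ± 0.05 in the Rps27-FLAG and Rps27l-FLAG line, Srsf2 at 0.22 ± 0.08 and 0.22 ± 0.05, and Srsf9 at 0.09 ± 0.11 and 0.09 ± 0.13. Srsf3 had wide errors (0.19 ± 0.13 and 0.25 ± 0.22) and was called in neither fit.

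The SF3 subunits of the U2 snRNP had medians of 0.20 and 0.13, and 8 of 9 were called with the block in each line. Sf3b3, the remaining subunit, was at −0.03 ± 0.06 and 0.01 ± 0.06. The small subunit Sf3b6 was highest in both lines, at 0.25 ± 0.09 and 0.24 ± 0.08. Sf3b1, the large subunit that holds the branch point, was at 0.17 ± 0.07 and 0.13 ± 0.09. U2af2, which binds the polypyrimidine tract, was at 0.18 ± 0.07 and 0.15 ± 0.05 and was called with the block, while U2af1, which reads the end of the intron, was at 0.00 ± 0.09 and 0.05 ± 0.07 and was not.

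The PRPF proteins differed most among themselves. Their medians were 0.05 in both lines, and their values ran from −0.60 to 0.26 and from −0.40 to 0.21. The block called 4 higher and 3 lower of 13 in the Rps27-FLAG line, beside 18.3% and 22.9% of all tested transcripts. In the Rps27l-FLAG line it called 3 higher and 2 lower, beside 12% and 19% of all. The lower calls are near those shares, so nothing about the group is read from them. Prpf8 was the lowest member in each line. In the Rps27-FLAG line it had 1430, 1635 and 1496 CPM in total and 932, 1093 and 973 CPM in IP libraries. The highest IP library was well under the lowest total library, and the level in the IP was 1.52-fold lower (−0.60 ± 0.08, adjusted p = 0.00553). In the Rps27l-FLAG line Prpf8 had 1469, 1414 and 1549 CPM in total and 1108, 1064 and 1191 CPM in IP libraries, 1.32-fold lower in the IP (−0.40 ± 0.06, adjusted p = 0.0158). Prpf38a, a protein needed to activate the spliceosome, was also lower with the block in both lines, at −0.15 ± 0.07 and −0.16 ± 0.07 without it. Prpf19 was lower with the block in the Rps27-FLAG line (−0.11 ± 0.06) and at 0.03 ± 0.06 in the Rps27l-FLAG line. Prpf38b in both lines, Prpf39 and Prpf4 in the former and Prpf4b in the latter were at the low end within their SE, as was Srsf4 in the latter. Prpf18, a factor of the last splicing step, was at 0.26 ± 0.10 and 0.21 ± 0.11.

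**Figure D3:**
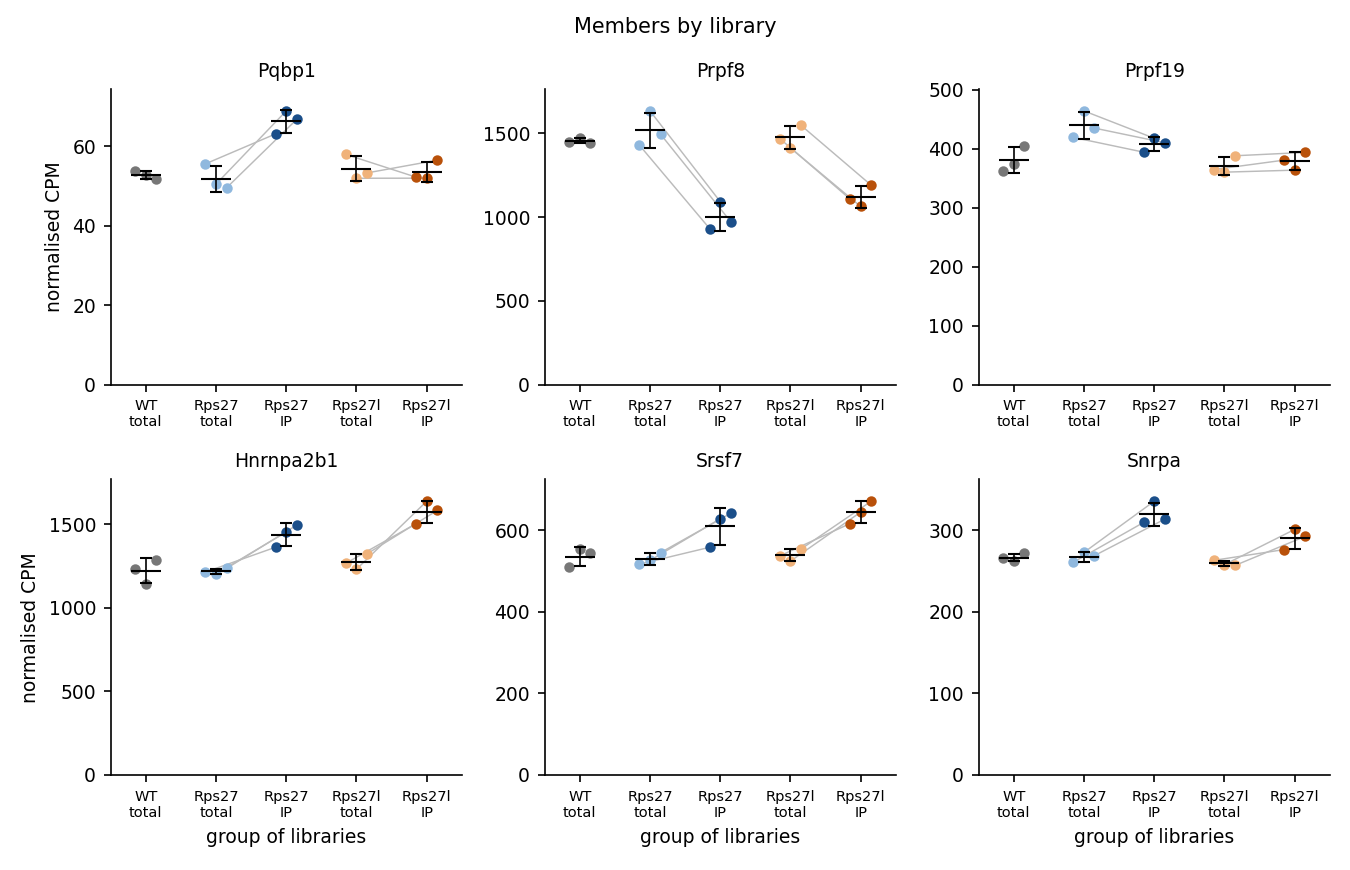
Normalised CPM of 6 members in each of the 15 libraries. Points are libraries, black bars the mean ± SD of 3 clones, grey lines join the total and IP library of a clone, and each axis starts at 0. Prpf8 is lower in every IP library than in any total library, Hnrnpa2b1, Srsf7 and Snrpa are higher in the IP of both lines, and Pqbp1 is higher in the Rps27-FLAG IP libraries than in all others.

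The IP effect went with coding length over the whole table, and this bears on every value above. Across the tested transcripts with an annotated length, the log2 fold change of IP over total and CDS length had a Spearman rho of −0.56 in the Rps27-FLAG line and −0.53 in the Rps27l-FLAG line (n = 10084). Across the 66 members it was −0.51 and −0.56, and −0.49 and −0.54 without Prpf8. Genes within a library are not independent replicates, so these are descriptions. The rho with GC content of the CDS was −0.04 and −0.10 across the members.

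Members lay above the transcripts of their own length in the 4 classes up to 4000 nt. In the class of 1000 to 2000 nt the 25 members had a median of 0.18 in the Rps27-FLAG line and the 3846 transcripts of that length −0.01. In the class of 2000 to 4000 nt the medians were 0.08 for 13 members and −0.14 for 2411 transcripts. The Rps27l-FLAG line gave 0.13 and −0.04 in the former class and 0.10 and −0.13 in the latter. Under 500 nt, where most Sm proteins fall, the medians were 0.22 for 9 members and 0.21 for all transcripts in the Rps27-FLAG line, and 0.24 and 0.16 in the Rps27l-FLAG line. Prpf8 is the only member over 4000 nt, and the 808 transcripts of that class had medians of −0.34 and −0.29.

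**Figure D4:**
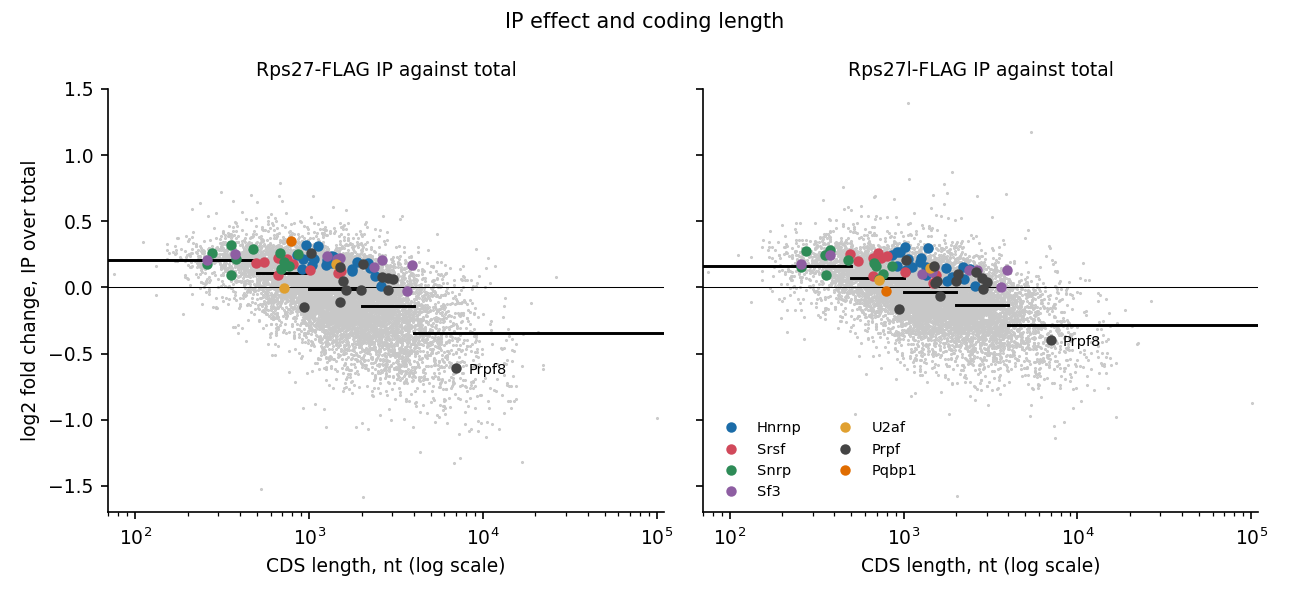
Log2 fold change of IP over total RPFs against CDS length in nt on a log axis, for all tested transcripts (grey) and members (coloured by name group) in both tagged lines. Black lines are the medians of all transcripts in 5 length classes, which fall from 0.21 to −0.34 and from 0.16 to −0.29, and most members between 1000 and 4000 nt lie above their class.

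With the length trend of each library removed and the clone as a block, 49 members (74.2%) were called higher in the Rps27-FLAG line and 47 (71.2%) in the Rps27l-FLAG line. The shares of all tested transcripts were 18.4% and 14.7%. Members called lower were 4 and 2, beside 13% and 8.04% of all. The groups moved in different ways under this correction. The median of the Snrp proteins went from 0.22 to 0.08 in the Rps27-FLAG line, and Snrpe went from 0.26 to 0.04. Of the 11 tested Snrp transcripts, 5 were then called higher in each line, and Snrpd1 was called lower in the Rps27-FLAG line. The median of the SF3 subunits in the Rps27-FLAG line went from 0.20 to 0.26, and Sf3b3 from −0.03 to 0.21. Prpf8 went from −0.60 to −0.21 and, in the Rps27l-FLAG line, from −0.40 to −0.08. Prpf38a, whose CDS of 936 nt is short, was at −0.19 and −0.17.

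The third question was whether IP effects differed between Rps27- and Rps27l-ribosomes. It was tested as the difference of the 2 IP effects in a fit with clone as a term, and a call needed a log2 difference of more than 0.25 in size. Pqbp1 was the single member called (0 without Pqbp1), and 0.476% of all tested transcripts were called higher and 0.0992% lower in the Rps27l-FLAG line. The median difference over the members was −0.01 with a median SE of 0.05, and that over all transcripts 0.00. None of the 5 members called higher in the Rps27l-FLAG IP alone, or of Snrpa and Snrpc, was called in this test. Their differences lay between −0.10 ± 0.05 for Snrpa and 0.07 ± 0.04 for Hnrnpk.

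Pqbp1, the polyglutamine-binding protein that joins the U5 snRNP and is mutated in an X-linked intellectual disability, had 63.1, 68.9 and 66.8 CPM in the IP libraries of the Rps27-FLAG line. In the Rps27l-FLAG IP it had 52.2, 52.0 and 56.5 CPM. The former were above all other libraries, while the latter stayed within the range of the total libraries. The log2 ratios of IP over total in the single clones were 0.18, 0.45 and 0.43 in the Rps27-FLAG line and −0.15, 0.00 and 0.09 in the Rps27l-FLAG line, without overlap. The fitted IP effects were 0.35 ± 0.08 (adjusted p = 0.0471), the highest of all members in that line, and −0.02 ± 0.09 (adjusted p = 0.937). Their difference was −0.37 ± 0.09 (adjusted p = 0.00905 by edgeR). Since Pqbp1 was chosen with these values known, they describe these libraries and lend no independent support. The difference rests on 221 to 445 counts per library, and no 28-nt window of its CDS recurs in another gene. Without Rps27-FLAG replicate 2 or 3 or Rps27l-FLAG replicate 1 no member was called, and the adjusted p of Pqbp1 was at most 0.171 when a replicate was left out. With no clone term the value was −0.38 (adjusted p = 1.00) and no member was called, and DESeq2 gave Pqbp1 −0.37 but no adjusted p.

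Prpf8 differed in the other direction. Its single-clone log2 ratios were −0.62, −0.58 and −0.62 in the Rps27-FLAG line and −0.41, −0.41 and −0.38 in the Rps27l-FLAG line, and every value of the former was below every value of the latter. The difference was 0.21 ± 0.04 (adjusted p = 0.000191), short of the limit of 0.25 and so not called. With the length trend removed it was 0.13 (adjusted p = 0.0991). The difference of IP effects and CDS length had a Spearman rho of 0.17 across all tested transcripts with an annotated length (n = 10084). Across the 66 members it was −0.04. Prpf19 had ratios of −0.09, −0.15 and −0.08 against 0.06, 0.01 and 0.02, also without overlap, and a difference of 0.14 ± 0.04 (adjusted p = 0.0558). Hnrnph2, a close relative of Hnrnph1 that binds G-rich RNA, had 0.25, 0.23 and 0.24 against 0.01, 0.17 and 0.10 and a difference of −0.16 ± 0.05 (adjusted p = 0.0977). Of the other members at the low end, Hnrnpa1 was at −0.15 ± 0.10, Sf3b4 at −0.13 ± 0.05 and Hnrnpr at −0.12 ± 0.05, while Sf3a2, Hnrnpul2, Snrpn and Prpf18 lay between −0.11 and −0.08. At the high end Srsf3, Srsf5, Hnrnpu, Srsf7 and U2af1 lay between 0.06 and 0.08. None of these was called.

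**Figure D5:**
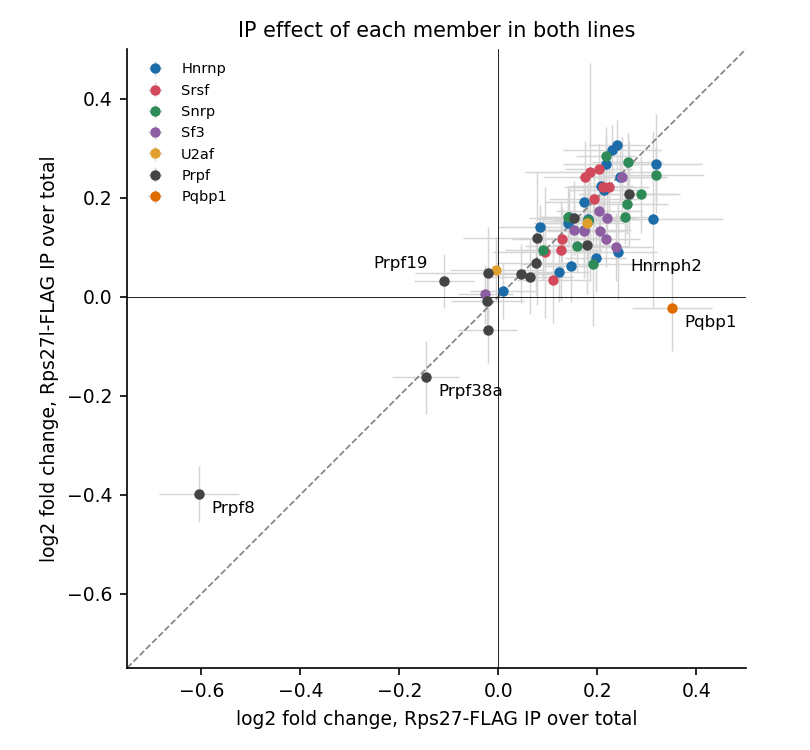
Log2 fold change of IP over total RPFs (± SE) of each tested member in the Rps27-FLAG line (x axis) and the Rps27l-FLAG line (y axis), coloured by name group, with the dashed line marking equal values. Most members lie near that line between 0 and 0.35, Pqbp1 lies far below it (0.35 and −0.02), and Prpf8 above it (−0.60 and −0.40).

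Other genes of the splicing machinery were taken from a list of 99 transcripts outside the name rule, and all 99 were tested. No one of them was called between lines in the total RPFs or in the difference of IP effects. In the Rps27-FLAG IP 2 were called higher and 5 lower, beside 0.327% and 5.34% of all tested transcripts, with a median of 0.15. In the Rps27l-FLAG IP 1 was higher and 3 lower, beside 0.833% and 2.27% of all, with a median of 0.08. The counts of lower calls are near those shares, so that nothing about the list is read from them. With the clone as a block 55 were higher and 14 lower in the Rps27-FLAG IP, beside 18.3% and 22.9% of all tested transcripts. In the Rps27l-FLAG IP 35 were higher and 9 lower, beside 12% and 19% of all. Higher calls with the block were thus more frequent in this list than over all transcripts, as they were among the members. Without the block, the hnRNP relative Syncrip was called higher in both lines (0.24 ± 0.05 and 0.21 ± 0.04), and the branch point protein Sf1 in the Rps27-FLAG line (0.22 ± 0.05). Snrnp70, the third U1-specific protein beside Snrpa and Snrpc, was called lower in both lines, at −0.42 ± 0.06 (adjusted p = 0.00823) and −0.33 ± 0.06 (adjusted p = 0.0225), and its CDS is 1344 nt long. Gemin4 of the snRNP assembly complex (−0.50 ± 0.07 and −0.37 ± 0.07) and the helicase Aqr (−0.53 ± 0.12 and −0.39 ± 0.08) were also called lower in both. Gemin5, which recognises snRNAs for assembly, and Plrg1, a partner of Prpf19, were called lower in the Rps27-FLAG line alone, and no difference of either between the lines was called.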

How the data were processed

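Ribosome-protected fragments were measured in 15 libraries of 9 mESC clones. The authors trimmed reads with cutadapt 2.4, removed duplicates by molecular identifier with UMI-tools 1.0.1, discarded rRNA, tRNA and snRNA reads and aligned the rest with Bowtie2 2.3.4.3 to GRCm38 (mm10) transcripts. They kept unique alignments and counted A sites in coding sequences, leaving off 15 codons at the start and 5 at the end. The deposited values are raw counts per transcript. Intervals and SEs over clones include the counting error at the totals given above.

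Symbols, CDS lengths and positions came from GENCODE M21, which holds 21723 of the 21727 transcripts. Mitochondrially encoded transcripts (13) were left out, and CPM over 2 in at least 14 libraries was required. TMM factors were computed for IP and total libraries separately. The quasi-likelihood test of edgeR 4.0.16 in R 4.3.3 was fitted across all 10085 transcripts with a threshold of 0.05 on the Benjamini-Hochberg adjusted p, and a limit of 0.25 on the absolute log2 value for the difference of IP effects, which had clone as a term. Total RPFs were compared between lines and IP with total RPFs within a line, both without a block. Tmod3, which the authors left out as an artifact of the pull-down, was kept. Single-clone log2 ratios had 0.5 counts added. Fits were also run on simulated counts with known changes. Those counts had no clone effect or length trend, and no result above rests on that run.

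By the labels, IP and total libraries of 1 replicate number share a clone, and their residuals correlated with r between 0.483 and 0.798 in all 6 tagged clones. Between total libraries of the same replicate number, r was between −0.17 and 0.72. No 2 replicates of a condition were copies (chi-squared of 1.78 to 10.3 per degree of freedom). Alternatives were the replicate block, DESeq2 1.42.0, voom with limma 3.58.1, other size factors and filters, a loess correction for CDS length (span 0.5) and leaving out replicates. Windows of 28 nt of the members' coding sequences were searched in whole transcripts, both the others of the count table and those of other M21 genes. Figures used Python 3.11.15 and matplotlib 3.10.9.

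Members and gene lists were chosen with earlier results of these data known. Named members were Pqbp1, the highest and lowest of each group by level, the 10 highest and 10 lowest of each comparison, all untested members and those called, with values or a range for those beyond their SE. One member that this rule names is not reported here by name. Other members are named for their role in a group, after their values were seen.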

Additional observations from a re-analysis of the deposited data

Results flagged for a closer look

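Prpf8 stood out because its IP effect differed between the tagged lines at an adjusted p under 0.05 (edgeR, clone as a term). The difference was 0.21 on the log2 scale, with an IP effect of −0.60 in the Rps27-FLAG line and −0.40 in the Rps27l-FLAG line. It was short of the limit of 0.25, so Prpf8 was not called. With the length trend removed the difference of Prpf8 was 0.13 (adjusted p = 0.0991 by edgeR). Pqbp1 also had an adjusted p under 0.05, with a difference of −0.37 and IP effects of 0.35 and −0.02. But Pqbp1 was taken in after being singled out in these same data, so its values are a description only.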

How the results depend on the processing

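In total RPFs, the count of members called between lines stayed at 0 under every alternative except 1 call with the replicate number as a replicate block, for Rps27l-FLAG against Rps27-FLAG. For the Rps27-FLAG IP the 4 members called without a block became 55 with the clone as a replicate block, 53 with that block and the length trend removed, and 0 with the length trend removed alone. DESeq2 called 9, voom with limma 2, and both other filters on low counts 1 each. For the Rps27l-FLAG IP the 6 calls became 44, 49 and 0 under the same changes, 15 with DESeq2, and 12 with DESeq2 size factors or with TMM over IP and total libraries together. Leaving out a replicate gave 0 to 36 calls in the Rps27-FLAG IP, 0 to 5 in the Rps27l-FLAG IP and 0 or 1 for the difference of the IP effects. With the clone as a replicate block and a replicate left out, a choice made after seeing the data, the counts were 50, 50 and 48 in the former line and 41, 37 and 42 in the latter. For the difference of the IP effects, 0 members were called with no replicate block, 2 with no limit on the fold change, and 0 with DESeq2, which gave 38 of the 66 members an adjusted p and none to Pqbp1. The causes were not tested.

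Values of Pqbp1, Prpf19 and Hnrnpr changed sign. Pqbp1 in the Rps27l-FLAG IP went from −0.02 to 0.0092 with DESeq2 and 0.0096 with its size factors in edgeR, ranged from −0.072 to 0.042 with a replicate left out, and was at 0.039 with the clone as a replicate block and without replicate 1. In total RPFs Prpf19 for Rps27l-FLAG against WT went from −0.04 to between −0.070 and 0.011 with a replicate left out (the highest without WT replicate 3), and Hnrnpr for Rps27-FLAG against WT from 0.14 to between −0.035 and 0.26 (the lowest without WT replicate 2). Of all recomputed values of named members, 1117 kept their direction and side of the threshold, 89 passed it only in the alternative and 41 only in the original fit. Over its alternatives the difference of Pqbp1 ranged from −0.47 to −0.30 and that of Prpf8 from 0.13 to 0.22. With 3 clones per condition, the median SE per member in the IP comparisons was 0.06 to 0.08. Without the block no member with a change of less than 0.24 in size was called in these comparisons. Snrpd2, at 0.32 in the Rps27-FLAG line, was not called either.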
